A study of Arabidopsis thaliana with 12 samples.

Results

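The 4 genes described here encode proteins of the cell wall and are grouped under root hairs, for which EXPA7 and EXPA18 are markers. They were measured in Arabidopsis roots on sufficient and on low sulfate. They are the expansins EXPA7 (AT1G12560, probe set 259525_at), EXPA18 (AT1G62980, 261099_at) and EXPA8 (AT2G40610, 255822_at), and the class III peroxidase AT3G49960 (252238_at). They were picked by name, with their response to low sulfate in these arrays already known, and are 4 of 13286 genes that have a probe set with a single gene. The measurements are RNA levels from Affymetrix arrays hybridised with biotin-labelled cRNA from roots of 10-day-old plants. Line P is Columbia carrying the promoter of SULTR1;2, a sulfate transporter gene, fused to GFP. The slim1-1 and slim1-2 mutants carry the same reporter, so all 6 groups share it; they were selected because their GFP signal answered poorly to sulfur shortage. Plants stood on vertical agar with 1500 µM added MgSO4 (S1500) or 15 µM (S15), and the washed agar brought roughly 10 µM of sulfate of its own. Every line was arrayed in biological duplicate on either medium, 12 arrays in all. The mutated gene, SLIM1 (EIL3), encodes an EIN3-like transcription factor and was not analysed here, so the mutations were not checked. The labels do not say whether duplicates came from separate cultures, and p-values measure the spread between these arrays.

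Expansins loosen the plant cell wall without cutting its polymers, by weakening the contact between cellulose and the other wall glycans. In Arabidopsis, EXPA7 and EXPA18 are markers of hair-forming epidermal cells, where they act in hair initiation and elongation. EXPA8 belongs to the same alpha-expansin family and is not a standard root hair marker. Class III peroxidases are secreted enzymes that use hydrogen peroxide either to cross-link wall polymers and proteins or to make radicals that cut them. Low sulfate changes transport and metabolism in the root, and the root hair is one of the cell types through which a root takes up ions.

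Median signals per array ran from 65.65 to 174.95, and slim1-2-S15 replicate 2 was the brightest array. Levels below are log2 signals after quantile normalization, which gives all arrays the same distribution. On signals without that step, the median over tested probe sets moved by 0.26 for S15 minus S1500 in P, called the parental response, by 0.61 for the same difference in slim1-2 and by 0.47 in slim1-2 minus P on S15. Replicate arrays correlated at 0.982 to 0.988 across 13647 tested probe sets, where genes are not independent replicates. In whole roots, fewer cells of a type and less RNA per cell cannot be told apart.

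As deposited, the signal of EXPA7 ran from 195.7 to 534.6 over the 12 arrays with a median of 279.3. EXPA18 ran from 152.5 to 606.5 with a median of 248.45, and AT3G49960 from 108 to 663.4 with a median of 252.45. EXPA8 was the dim one on its own probe set, at 28.2 to 121.7 with a median of 49.25. The highest deposited signal of each gene was on slim1-2-S15 replicate 2. All 4 genes lay above the brightest of the 27 B. subtilis control probe sets on 12 of 12 arrays. The mean log2 signal of EXPA8, 5.774, lay just above the filter for testing of 5.767, and its S15 arrays of the slim1 lines carried it over.

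EXPA7 was highest in P on low sulfate. Its log2 levels on S1500 and S15 in P were 7.76 and 8.24 against 8.79 and 8.74. In slim1-1 they were 7.72 and 8.01 against 7.95 and 7.76, and in slim1-2 8.43 and 8.30 against 8.22 and 8.15. The P arrays on S15 therefore lay above every other array, the slim1-1 arrays of both media overlapped, and in slim1-2 the S15 arrays lay below the S1500 arrays. The difference S15 minus S1500 was 0.76 ± 0.149 (SE, n = 2 arrays per group; 95% interval 0.44 to 1.08) in P, a 1.70-fold higher level. It was -0.01 (interval -0.33 to 0.31) in slim1-1 and -0.18 (interval -0.50 to 0.14) in slim1-2, which turned to 0.43 without normalization between arrays. The values of all 4 genes in these responses led to their choice and are given as a description, without a test.

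EXPA18 had a lower pooled SD between replicates than EXPA7, 0.102 against 0.177, but wider replicates in both slim1-2 groups. Its log2 levels in P were 7.76 and 7.70 on S1500 and 8.53 and 8.49 on S15. They were 7.66 and 7.55 against 7.65 and 7.59 in slim1-1, and 8.45 and 8.19 against 8.15 and 8.33 in slim1-2. The P arrays of the media were well apart and those of each slim1 line overlapped. The response was 0.78 ± 0.116 in P (interval 0.53 to 1.03), 0.01 (interval -0.24 to 0.26) in slim1-1 and -0.08 (interval -0.33 to 0.17) in slim1-2. The slim1-2 response of EXPA18 turned to 0.54 without normalization between arrays.

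AT3G49960 had the widest span of the 4. In P its log2 levels were 6.91 and 7.58 on S1500 and 8.82 and 9.02 on S15. In slim1-1 they were 7.26 and 7.40 against 7.62 and 7.52, and in slim1-2 8.52 and 8.26 against 8.41 and 8.46. P spanned from the lowest array of the study to the highest. In slim1-1 the levels were low on both media, with the S15 arrays above the S1500 arrays. In slim1-2 they stayed at an upper level on both. The response was 1.68 ± 0.175 (interval 1.30 to 2.06; 3.21-fold) in P, 0.24 (interval -0.14 to 0.62) in slim1-1 and 0.04 (interval -0.33 to 0.42) in slim1-2. For AT3G49960 in slim1-2 it was 0.66 without normalization between arrays.

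EXPA8 had another pattern, with its higher levels in the mutants on low sulfate. In P its log2 levels were 5.42 and 5.46 on S1500 and 5.84 and 5.53 on S15. In slim1-1 they were 4.82 and 5.54 against 6.55 and 6.53, and in slim1-2 5.73 and 5.53 against 6.36 and 5.98. The S15 arrays of both slim1 lines lay above all arrays of the other groups, with those of slim1-1 on top. The response was 0.24 ± 0.245 (interval -0.28 to 0.77) in P, 1.36 (interval 0.84 to 1.89; 2.57-fold) in slim1-1 and 0.54 (interval 0.01 to 1.07) in slim1-2. The slim1-1 response was 0.64 when 64 was added to each signal before the log, and the slim1-2 response was 1.14 without normalization between arrays.

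**Figure D1:**
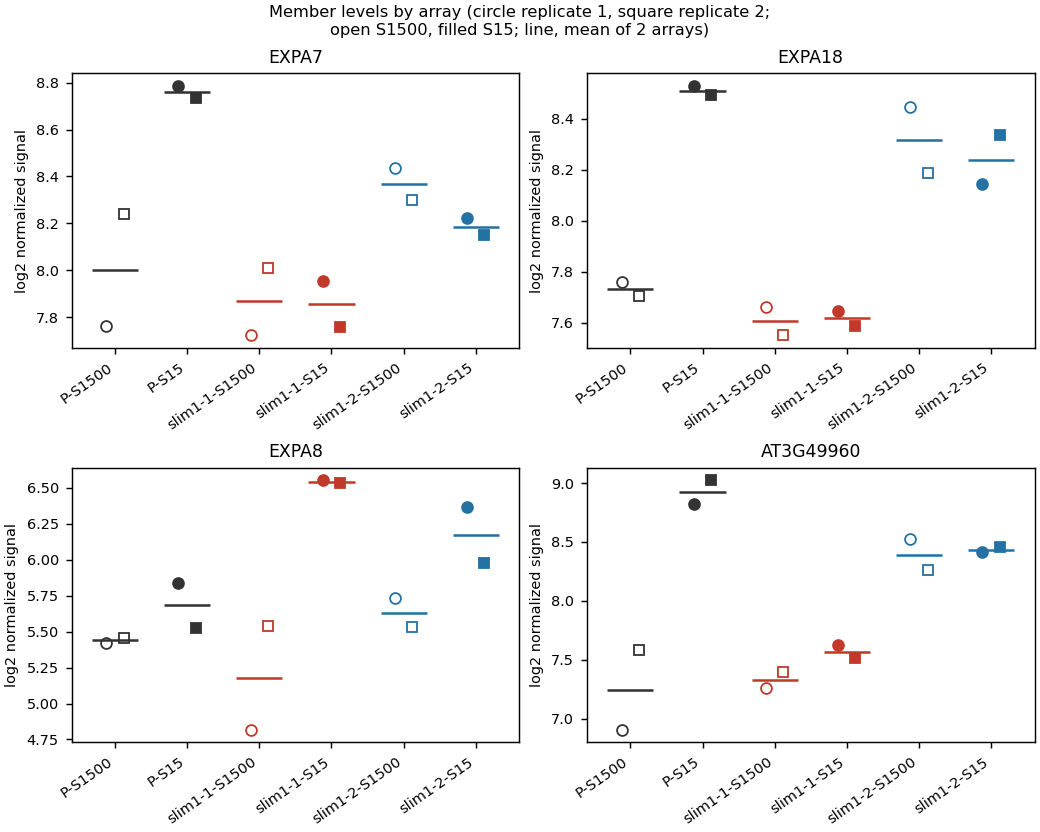
Log2 normalized signal (vertical axis) of EXPA7, EXPA18, EXPA8 and AT3G49960 in the 6 groups of line and medium, with a point per array. EXPA7, EXPA18 and AT3G49960 peak in P on S15, at means of 8.76, 8.51 and 8.92, whereas EXPA8 peaks in slim1-1 on S15, at 6.54.

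The plot of levels by group shows that the shared label covers 3 genes with a common pattern and EXPA8 with another. Over the 12 arrays, which share libraries and normalization, Pearson's r was 0.85 for EXPA7 with EXPA18, 0.90 for EXPA7 with AT3G49960 and 0.92 for EXPA18 with AT3G49960. EXPA8 had an r of -0.01 with EXPA7, 0.01 with EXPA18 and 0.20 with AT3G49960. In P, the S15 arrays lay above the S1500 arrays for all 4 genes, which held for 25.1% of tested probe sets. EXPA7 and EXPA18 were higher on S15 by non-overlapping arrays in P and in neither slim1 line, a pattern that 12.8% of tested probe sets shared. Since the genes were chosen on this contrast, nothing is read from these shares, and the r values only describe the levels.

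The order of group means placed P-S15 first for EXPA7, EXPA18 and AT3G49960. For EXPA7 the order went on with slim1-2-S1500 (8.37), slim1-2-S15 (8.19), P-S1500 (8.00), slim1-1-S1500 (7.87) and slim1-1-S15 (7.85). Among the last 4 of these, no neighbours differed beyond the pooled SD of 0.177 with separate arrays. The groups slim1-2-S1500 and slim1-2-S15 did so narrowly, at 0.181. For EXPA18 the slim1-2 groups (8.32 and 8.24) did not differ from each other beyond the pooled SD of 0.102, nor did the slim1-1 groups (7.62 and 7.61), and P-S1500 (7.73) lay between them. For AT3G49960 the slim1-2 groups (8.44 and 8.39) were neighbours within the pooled SD of 0.223, and slim1-1-S1500 (7.33) and P-S1500 (7.24) were too. Its slim1-1-S15 (7.57) lay narrowly beyond that SD above slim1-1-S1500 with separate arrays, at 0.241. For EXPA8 the order began with slim1-1-S15 (6.54) and slim1-2-S15 (6.17), which lay 0.49 above P-S15 (5.68). Among the 4 groups from P-S15 to slim1-1-S1500 (5.18), no neighbours differed beyond the pooled SD of 0.260 with separate arrays.

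On low sulfate itself, all 4 slim1 arrays lay below both P arrays for EXPA7, EXPA18 and AT3G49960, which held for 11% of tested probe sets. The mean of both slim1 lines minus P on S15 was -0.74 ± 0.129 for EXPA7, -0.58 ± 0.101 for EXPA18 and -0.92 ± 0.152 for AT3G49960. It was 0.67 ± 0.212 for EXPA8. The distance from P was larger in slim1-1 than in slim1-2 by value: -0.91 against -0.58 for EXPA7, -0.89 against -0.27 for EXPA18 and -1.35 against -0.49 for AT3G49960. Without normalization between arrays the slim1-2 value of EXPA18 turned to 0.18, and those of EXPA7 and AT3G49960 shrank to -0.11 and -0.03. Both comparisons share the P arrays.

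Shoot markers differed in these comparisons too. Over the 12 arrays their r with the mean of the 4 genes was 0.03 for RCA, 0.37 for LHCB4.1 and -0.10 for LHCB4.2. That mean mixes the pattern of EXPA7, EXPA18 and AT3G49960 with that of EXPA8, and r with either pattern alone was not computed. Of 7 listed shoot markers, 3 were named here and tested. In limma RCA, Rubisco activase, fell by 0.43 on S15 in P (adjusted p = 0.0287), 1 of 3 against 3.84% of tested probe sets called. In slim1-1 LHCB4.2, a light-harvesting protein, fell by 0.70 (adjusted p = 0.0274), again 1 of 3, against 2.2%. In slim1-2, 2 of 3 fell against 3.05%, LHCB4.2 by 1.65 (adjusted p = 2e-05) and RCA by 0.72 (adjusted p = 0.000902). For both slim1 lines minus P on S15, LHCB4.2 was at -1.18 (adjusted p = 0.000174) and RCA at -0.59 (adjusted p = 0.00196), 2 of 3 against 2.17%. In slim1-1 minus P on S1500, limma gave -0.94 for RCA (adjusted p = 0.000356) and -0.83 for LHCB4.2 (adjusted p = 0.0266). That was 2 of 3, with 59 of 13647 tested probe sets called, while the 4 genes differed there by -0.26 to 0.09. The summed level of the markers was 1310 to 1499 in P-S1500 and 1108 to 1118 in P-S15, 790.9 to 843.3 and 704.3 to 797.1 in slim1-1, and 1334 to 1352 and 804.3 to 845.3 in slim1-2, with 0 markers at 0. Their part in the values of the 4 genes was not tested.

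On sufficient sulfate the lines already differed. In slim1-2 minus P on S1500, AT3G49960 was higher by 1.15 ± 0.175 (2.22-fold), EXPA18 by 0.59 ± 0.116 (1.50-fold), EXPA7 by 0.37 ± 0.149 and EXPA8 by 0.19 ± 0.245. The slim1-2 arrays lay above both P arrays for all 4 genes, as for 23.4% of tested probe sets. The EXPA7 value was 0.13 without P-S1500 replicate 1 and 0.60 without P-S1500 replicate 2. In slim1-1 minus P on S1500 the values were -0.13 for EXPA7, -0.12 for EXPA18, -0.26 for EXPA8 and 0.09 for AT3G49960. Without normalization between arrays, EXPA7, EXPA18 and EXPA8 turned to 0.19, 0.20 and 0.12 there. The EXPA8 value was 0.10 without slim1-1-S1500 replicate 1. So, on normalized signals, the small low-sulfate differences of slim1-1 and slim1-2 stood at different levels: slim1-1 near P-S1500 and slim1-2 between P-S1500 and P-S15 for EXPA18 and AT3G49960.

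**Figure D2:**
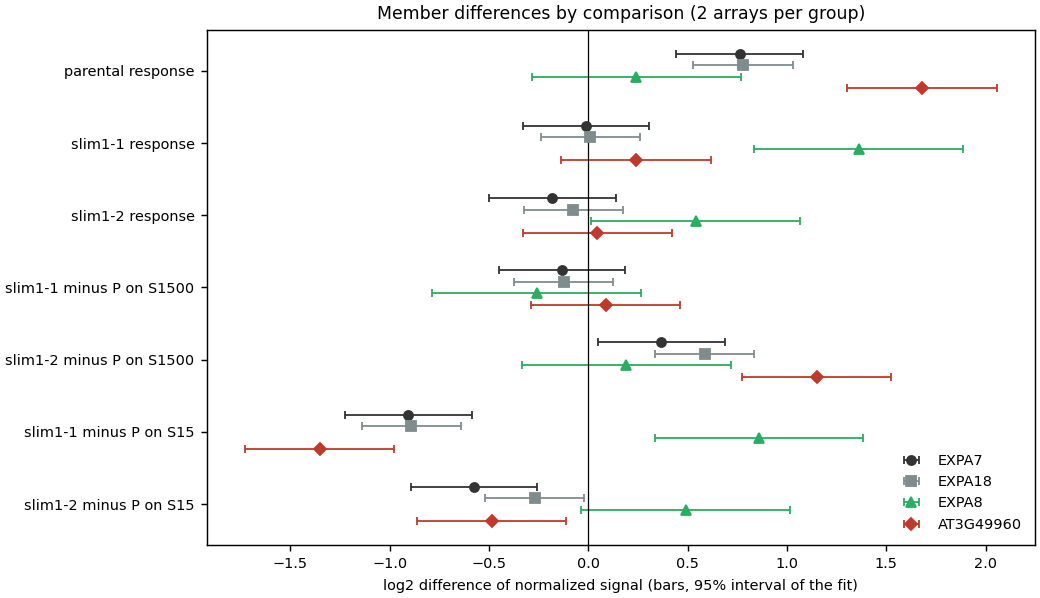
Log2 differences (horizontal axis, 0 meaning no difference) of the 4 genes in the responses to S15 and in the comparisons between lines, with bars for the 95% interval of the limma fit, n = 2 arrays per group. The parental response is largest for AT3G49960 at 1.68, and the slim1-1 response is largest for EXPA8 at 1.36.

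The difference of response is the mean of the slim1 responses minus that of P, and it was -0.86 ± 0.182 for EXPA7, -0.81 ± 0.142 for EXPA18 and -1.54 ± 0.215 for AT3G49960. It was 0.71 ± 0.300 for EXPA8 (interval 0.07 to 1.35). Taken apart, the lines gave -0.77 and -0.94 for EXPA7, -0.77 and -0.85 for EXPA18, and -1.44 and -1.64 for AT3G49960, slim1-1 first. For EXPA8 they gave 1.12 and 0.30. The plot of log2 differences shows slim1 responses of -0.18 to 0.24 for EXPA7, EXPA18 and AT3G49960 on normalized signals. Those of EXPA8 were 1.36 in slim1-1 and 0.54 in slim1-2. The genes were chosen on these responses, so the values and their intervals are a description and no test. The slim1-2 responses of EXPA7, EXPA18 and AT3G49960 lay at 0.43 to 0.66 without normalization between arrays, where the median of tested probe sets moved by 0.61.

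The direct comparison of slim1-1 with slim1-2 had not been read for these genes when they were chosen, although it shares arrays with comparisons that had, and it was tested with limma over all probe sets. On S1500, slim1-1 minus slim1-2 was -0.71 ± 0.116 for EXPA18 (1.64-fold lower; adjusted p = 0.00501) and -1.06 ± 0.175 for AT3G49960 (2.09-fold lower; adjusted p = 0.00517). EXPA7 differed by -0.50 ± 0.149 (adjusted p = 0.144) and EXPA8 by -0.45 ± 0.245 (adjusted p = 0.544). The EXPA8 value was -0.09 without slim1-1-S1500 replicate 1 and -0.81 without slim1-1-S1500 replicate 2. The values of AT3G49960 in each mutant against P on S1500 were known beforehand and share these arrays, so its call adds no support. The call of EXPA18 adds none either, because its values against P on S1500, -0.12 in slim1-1 and 0.59 in slim1-2, fix this difference. The 2 calls stand beside 1.69% of tested probe sets called, and nothing is read from that share. On S15, limma called 0 of the 3 genes EXPA7, EXPA18 and AT3G49960, with 0.183% of tested probe sets called. At an unadjusted p under 0.05 there were 3 of 3. The share of all tested probe sets at that threshold was not counted, so nothing is read from this. The differences on S15 were -0.33 for EXPA7 (adjusted p = 0.809), -0.62 for EXPA18 (adjusted p = 0.0531) and -0.87 for AT3G49960 (adjusted p = 0.0715). They add no support, with or without a call under an alternative, because the values of each mutant against P on S15 fix them. EXPA8 differed by 0.37 ± 0.245, given without a test because it passed the filter through these arrays. EXPA18 on S15 was called by limma with median centring (adjusted p = 0.0383) and with the 60th percentile filter (adjusted p = 0.0426). It was also called without either slim1-2-S1500 array, at -0.62 each time. AT3G49960 on S15 was called without either P-S1500 array, at -0.87 each time.

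With fewer arrays or without normalization some S1500 calls were lost while the differences kept their direction. Without normalization between arrays, EXPA18 differed by -0.48 and AT3G49960 by -0.84 (adjusted p = 0.977 for each from limma). EXPA18 was not called without slim1-1-S1500 replicate 2 (-0.65; adjusted p = 0.0658) or without slim1-2-S1500 replicate 1 (-0.58; adjusted p = 0.0697). AT3G49960 was not called without slim1-1-S1500 replicate 1 (-0.99; adjusted p = 0.0606) or without slim1-2-S1500 replicate 1 (-0.93; adjusted p = 0.0715). In the same comparison 3 of 3 shoot markers were lower in slim1-1 against 1.69% of tested probe sets called, led by LHCB4.2 with -0.82 (adjusted p = 0.0118). The cortex marker CO2, the one listed, lay below the filter at a level of 44 to 47.85 in slim1-2-S1500, against 29.44 to 30.62 in slim1-1-S1500 and 29.02 to 30.89 in P-S1500. It was 24.94 to 30.19 in P-S15, 27.42 to 31.69 in slim1-1-S15 and 30.38 to 32.37 in slim1-2-S15. The part of these markers in the differences between lines on S1500 was not tested.

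Other root hair genes were read from a list of 49, of which 7 were named here and 5 tested. In P, 2 of 5 rose on S15 and 0 fell, against 3.84% of tested probe sets called, and the list median was 0.34 beside 0.00 over all. Both are peroxidases of hair cells: AT1G30870 (PRX7) rose by 0.54 ± 0.104 (adjusted p = 0.0079 from limma) and AT4G26010 (PRX44) rose by 0.47 ± 0.102 (adjusted p = 0.0166). PRX57, another of them, had 0.34 (adjusted p = 0.153). CSLD2, a cellulose synthase-like protein of hair walls, had 0.16, and SCN1, which restricts hair initiation to a single site, had -0.01. In the slim1-1 and slim1-2 responses limma called 0 of 5, with 1 and 0 at an unadjusted p under 0.05, where 2.2% and 3.05% of tested probe sets were called. In the difference of response it called 0 of 5 as well, with 2 at an unadjusted p under 0.05 and 0.938% of tested probe sets called, so a difference between lines was not shown. These shares are of calls by adjusted p, and none was counted at the unadjusted threshold. RSL3 and XTH26 lay below the filter.

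PRX7 and PRX44 were highest in P-S15, with both slim1-2 groups next, and lowest in slim1-1-S1500. PRX7 had log2 levels of 9.46 and 9.59 in P-S1500 and 10.00 and 10.12 in P-S15, and 9.96 and 10.04 in slim1-2-S1500. PRX44 had 10.25 and 10.36, 10.83 and 10.72, and 10.73 and 10.79 in the same groups. Both therefore stood about as high in slim1-2 on sufficient sulfate as in P on low sulfate. In slim1-2 minus P on S1500 PRX7 rose by 0.47 (adjusted p = 0.0327) and PRX44 by 0.45 (adjusted p = 0.0378), 2 of 5 against 2.21% of tested probe sets called. In slim1-1 minus slim1-2 on S1500 they were lower, with log2 differences of -0.65 for PRX44 (adjusted p = 0.00339) and -0.59 for PRX7 (adjusted p = 0.00866). In slim1-1 minus P on S15 PRX7 fell by 0.59 (adjusted p = 0.00687) and PRX44 fell by 0.45 (adjusted p = 0.0408), 2 of 5 against 1.6% of tested probe sets called. For PRX44 this call was kept in 9 of 20 alternatives, with values from -0.61 to -0.29, and was lost without any one of the 4 P arrays, without slim1-1-S15 replicate 2 and without either slim1-2-S15 array. For PRX7 it was lost without P-S15 replicate 2 and without slim1-1-S15 replicate 2. In slim1-2 minus P on S1500 both calls were lost without any one of the 4 arrays compared, and that of PRX44 also without P-S15 replicate 2 or either slim1-2-S15 array. Between the slim1 lines on S1500 both were lost without slim1-1-S1500 replicate 2, and that of PRX7 without slim1-2-S1500 replicate 2. The parental count of this list was 0 when P-S1500 replicate 1 was left out, 0 without P-S15 replicate 2 and 1 without P-S15 replicate 1. The plot of responses in P against those in the slim1 lines sets these families beside the 4 genes. Without normalization between arrays none of the calls in the root hair, expansin and peroxidase lists was kept.

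**Figure D3:**
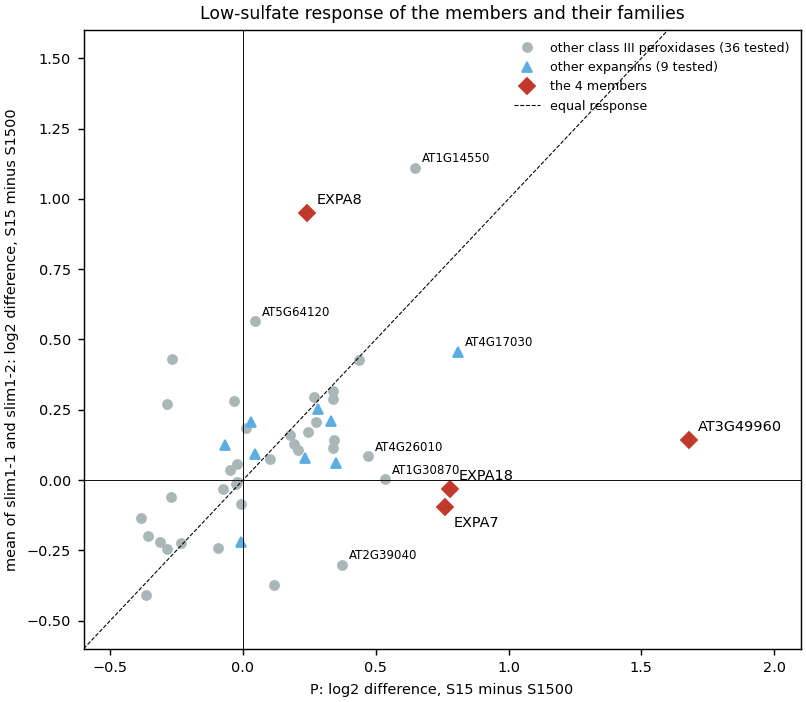
Log2 response to low sulfate (S15 minus S1500) in P on the horizontal axis against the mean of the slim1-1 and slim1-2 responses on the vertical axis, with a point per gene for the 4 genes, the other expansins (9 tested) and the other class III peroxidases (36 tested). EXPA7, EXPA18 and AT3G49960 lie right of the dashed line of equal response near 0 on the vertical axis after normalization, at 0.76, 0.78 and 1.68 in P, and EXPA8 lies above that line.

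Of 31 other expansins listed, 15 were named here and 9 tested. In P, 2 of 9 rose on S15 and 0 fell, with 3.84% of tested probe sets called and a list median of 0.23. EXLB1, an expansin-like B protein, rose by 0.81 ± 0.176 (adjusted p = 0.0166 from limma), and EXPB3, a beta-expansin, by 0.33 ± 0.0796 (adjusted p = 0.0311). Limma called 0 of 9 in each slim1 response, with 4 and 1 at an unadjusted p under 0.05, where 2.2% and 3.05% of tested probe sets were called. Both shares are of calls by adjusted p, and none was counted at the unadjusted threshold. In slim1-2 minus P on S1500, EXPB3 rose by 0.38 (adjusted p = 0.0234), 1 of 9 against 2.21%, a call lost without any one of the 4 arrays compared. The parental count was 0 without P-S1500 replicate 1, without P-S15 replicate 1 and without P-S15 replicate 2, and 1 without P-S1500 replicate 2. The other alpha-expansins tested, EXPA4, EXPA9, EXPA15 and EXPA20, were not called in these comparisons.

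Of 72 other class III peroxidases listed, 54 were named here and 36 tested, and they did not move one way. In P, 3 rose and 1 fell of 36, with 3.84% of tested probe sets called and a list median of 0.03. Beside PRX7 and PRX44, AT1G14550 (PRX5) rose by 0.65 ± 0.149 (adjusted p = 0.025 from limma), and AT4G33420 (PRX47) fell by 0.37 ± 0.0790 (adjusted p = 0.0164). In slim1-1, AT1G14550 rose by 1.32 (adjusted p = 0.000147) and AT5G64120 (PRX71) by 1.07 (adjusted p = 0.001), and AT4G33420 fell by 0.43, 3 of 36 against 2.2% of tested probe sets called. In slim1-2, AT1G14550 rose by 0.90 (adjusted p = 0.00322) and AT4G33420 fell by 0.39 (adjusted p = 0.014), 2 of 36 against 3.05%. The slim1-2 value of AT4G33420 turned to 0.20 without normalization between arrays, and its call was lost without any one of the 4 slim1-2 arrays. In P, both AT1G14550 and AT4G33420 were lost without either P-S1500 array or P-S15 replicate 1. In slim1-1, AT4G33420 was lost without replicate 2 of slim1-1-S1500 or replicate 1 of slim1-1-S15, and in slim1-2, AT1G14550 without slim1-2-S15 replicate 2. AT1G14550 was higher in both slim1 lines than in P on S15 by 0.61 (adjusted p = 0.0233; lost without either P-S15 array, slim1-1-S15 replicate 2 or slim1-2-S15 replicate 2), which is the direction of EXPA8 there and not that of AT3G49960.

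AT2G39040 (PRX24) was the peroxidase of the list whose response differed between lines. Its log2 levels were 8.24 and 8.26 in P-S1500 against 8.49 and 8.75 in P-S15, 8.15 and 8.14 against 7.89 and 7.80 in slim1-1, and 8.21 and 8.26 against 7.96 and 7.91 in slim1-2. The difference of response was -0.67 ± 0.131 (adjusted p = 0.0253 from limma), 1 of 36 tested against 0.938% of tested probe sets called. Both slim1 lines lay below P on S15, with a log2 difference of -0.73 ± 0.0929 (adjusted p = 0.000464), with 2.17% of tested probe sets called. The difference of response was called in 11 of 20 alternatives and was lost when any of these was left out: either P-S1500 array, P-S15 replicate 2, either slim1-1-S1500 array, slim1-1-S15 replicate 2 or slim1-2-S15 replicate 2.

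The wall-loosening, hormone and endodermis lists gave no call in the responses. Of 18 xyloglucan and wall-loosening enzymes 7 were tested, and limma called 0 of 7 in each of the 14 comparisons, with 1 of 7 at an unadjusted p under 0.05 in the parental response, where XTH16 had 0.37 (adjusted p = 0.139). Of 17 listed hormone genes that act on root hairs, EIN3 and IAA18 were tested and 0 of 2 were called, with 1 at an unadjusted p under 0.05 in the parental response. Of 9 epidermal cell fate genes 1, TRY, was named here and lay below the filter. SGN3, the endodermis marker named here of 9 listed, had 0.23 in the parental response (adjusted p = 0.344). Its level was 338.1 to 353.4 in P-S1500 and 365.7 to 446.4 in P-S15. The stele, meristem and root cap markers were not analysed here, so shares of those tissues were not read.

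**Figure D4:**
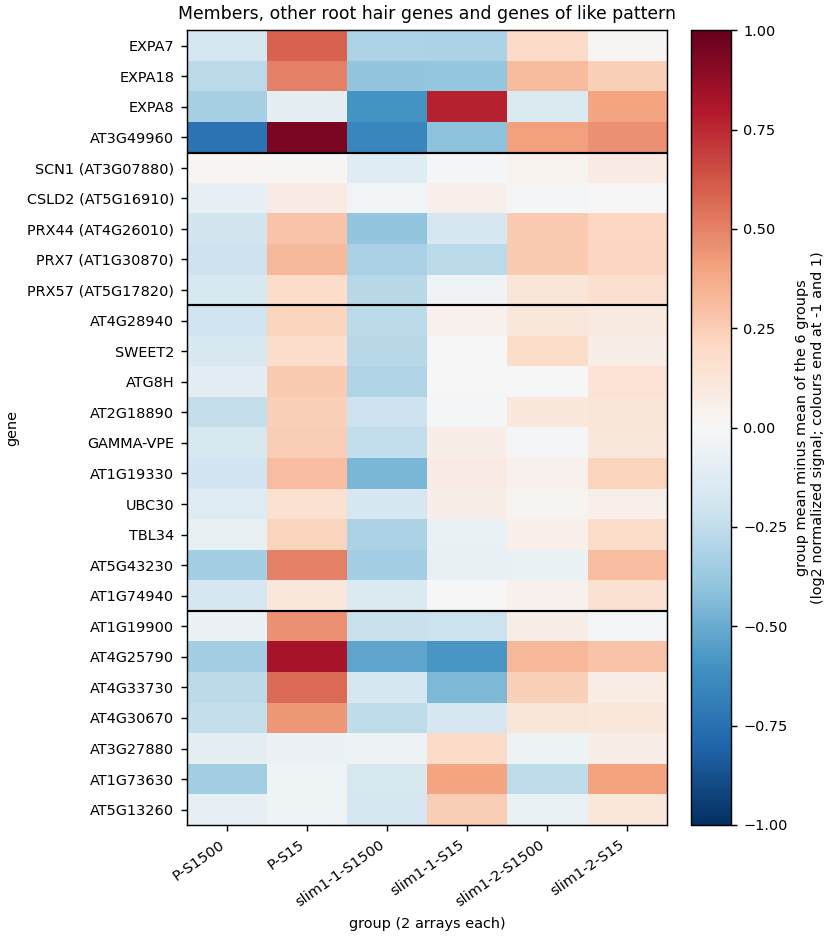
Colour map of group means minus the mean of the 6 groups (log2 normalized signal, colours ending at -1 and 1), with genes in rows and groups of 2 arrays in columns: the 4 genes, the tested root hair genes, the genes most like their mean, and those most like single members. EXPA7, EXPA18 and AT3G49960 are highest in P-S15, and EXPA8 is highest in slim1-1-S15.

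Among 7328 tested probe sets with a single gene, those most like the mean of the 4 genes over 12 arrays were AT4G28940 (r = 0.94), SWEET2 and ATG8H (r = 0.91 each), AT2G18890 and GAMMA-VPE (r = 0.90), AT1G19330, UBC30, TBL34, AT5G43230 and AT1G74940 (r = 0.89 to 0.90). That mean mixes both patterns, and the likest genes of single members were others. EXPA7 was closest to AT1G19900 (r = 0.95), AT4G25790 (0.91) and AT4G33730 (0.89). EXPA18 was closest to AT4G25790 (0.94), AT1G30870 (0.94) and AT4G30670 (0.92), and AT3G49960 to AT4G30670 (0.94), AT4G25790 (0.92) and AT1G30870 (0.91). EXPA8 was closest to AT3G27880 (0.89), AT1G73630 (0.88) and AT5G13260 (0.86), none of which was among the likest genes of the other 3. The plot of group means shows these genes beside the members, and the arrays behind every r share their normalization.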

How the data were processed

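RNA levels were measured in roots of 6 groups, 2 arrays each. The authors deposited linear intensity values, 1 per probe set and array, for which the submitters' processing notes name MAS5. Its scaling target and version were not given in the sources used here. Values under 1 were set to 1, log2-transformed and quantile-normalized. After 64 controls were left out, 13647 of 22746 probe sets passed a filter at the 40th percentile of the mean log2 signal (5.767) and were tested. A model with 1 mean per group was fitted with limma 3.58.1 in R 4.3.3 (eBayes with a trend; degrees of freedom 6 residual, 7.76 prior). All tests were two-sided, with Benjamini-Hochberg adjustment over the tested probe sets and a call at 0.05. Shares of tested probe sets called refer to adjusted p. No such share was counted at an unadjusted p under 0.05, so counts at that threshold only describe the genes. The procedure was tested on simulated data. The number of arrays limits the precision.

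The members and lists were chosen with earlier results of these data known. Genes named are the 4 members, up to 4 called genes per list and comparison (or, with none called, the tested gene with the largest parental difference), all tested root hair genes, and the likest 10 and 3 genes by Pearson's r. Probe sets were named by GEO's platform annotation: 13513 have 1 gene, 503 several, and 8794 are unnamed here. RefSeq names of assembly TAIR10.1 matched 13436. Of 223 distinct listed genes, 88 were named here and 60 tested. Alternatives were median centring, signals without normalization, pseudocounts of 16 and 64, no filter, a 60th percentile filter, omission of each array, a fit without the intensity trend and a block for the replicate number.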

Additional observations from a re-analysis of the deposited data

Results flagged for a closer look

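EXPA7 moved in opposite directions by arrays in P and slim1-2: every S15 array lay above every S1500 array in P and below in slim1-2. The difference of the log2 responses, slim1-2 minus P, was -0.94, and this difference was not tested, because the gene was chosen on these responses. Without normalization between arrays the slim1-2 response of EXPA7 was 0.43, so the opposite direction was not kept there.

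The peroxidase AT2G39040 had a difference of response between the slim1 lines and P of -0.67 by limma (adjusted p = 0.0253), with higher levels on S15 in both P arrays and lower ones in all 4 slim1 arrays. These levels are after normalization. The call was kept in 11 of 20 alternatives and was lost without normalization between arrays.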

How the results depend on the processing

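No result was called in the opposite direction under an alternative run here, and the member medians of the slim1-2 response and of slim1-1 against P on S1500, both near 0, changed sign. With median centring, limma called 1 member on S15 between the slim1 lines, 1 root hair gene and 1 expansin higher and 0 peroxidases lower in the parental response, and 0 root hair genes higher in slim1-2 against P on S1500. Without normalization between arrays, the median of the 4 members was 1.03 for the response of P and 0.60 for that of slim1-2. It was -0.39 for the mean of the slim1 lines minus P on S15 and 0.19 for slim1-1 against P on S1500. Every count of called members and of root hair, expansin and peroxidase genes recounted there was 0. Adding 64 gave medians of 0.63 in the parental response and -0.69 in the difference of response. Without a filter, 1 root hair gene, 1 peroxidase and 0 expansins were higher in the parental response and 0 root hair genes in slim1-2 against P on S1500. With the 60th percentile filter, 1 member was called on S15 and 1 peroxidase higher in slim1-1. Without the intensity trend, 1 root hair gene and 1 expansin were higher in the parental response, 0 root hair genes in slim1-2 against P on S1500, and 0 peroxidases lower in P, in slim1-2 or in the difference of response. The cause was not tested.

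Leaving out each array in turn gave member medians of 0.66 to 0.87 in the parental response (0.77 in the full set), 0.08 to 0.22 in slim1-1, -0.15 to 0.12 in slim1-2, -0.94 to -0.73 in the difference of response, -0.69 to -0.63 for the slim1 mean minus P on S15, -0.26 to 0.057 for slim1-1 and 0.38 to 0.58 for slim1-2 against P on S1500. Members called between the slim1 lines were 0 to 2 on S1500 and 0 to 1 on S15. Root hair genes called were 0 to 2 in the parental response, in slim1-2 against P and between the slim1 lines on S1500. Peroxidases called higher were 0 to 3 in P, 2 to 2 in slim1-1 and 0 to 1 in slim1-2; called lower, 0 to 1 in each response and 0 to 2 in the difference of response. Expansins called higher in P were 0 to 2. Probe sets called in the parental response were 524, from 270 to 556 with an array left out and 65 without normalization.

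Over 15 pairs of groups the correlation of deviations of same-numbered arrays ran from -0.12 to 0.23, and 4 exceeded 0.1. These deviations were taken after normalization, which removes shifts of whole arrays. They cannot decide whether same-numbered arrays shared a batch, and the labels state none. With the replicate number as a block, the member median in the parental response was 0.77 and the members called were 2 on S1500 and 0 on S15. Probe sets called in the parental response were 554 in place of 524. Between the slim1 lines they were 242 in place of 231 on S1500 and 32 in place of 25 on S15. The root hair, peroxidase and expansin counts given for omitted arrays were unchanged under the block. Other counts of listed genes were not recounted. EXPA8 was tested in 14 of 20 alternatives.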
